A study of Homo sapiens with 2 samples.

Results

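CD44 is a surface glycoprotein best known as the receptor for hyaluronan, a polysaccharide of the extracellular matrix. Its mRNA keeps a constant set of exons at both ends, and a block of variable exons between them can be left out whole or included in many combinations. The form with no variable exon is called standard CD44, and a form with the exons named v8, v9 and v10 is typical of epithelia and carcinomas. In the deposited features CD44 is 1 gene of 36953, ENSG00000026508, on the plus strand at chr11:35116993-35210522 of genome build hg18. All of its entries were taken by gene name, which gave 6 Ensembl transcripts, 22 exon regions, 171 junctions between exons and 36 exon-intron boundaries.

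The gene was measured in polyadenylated RNA of 2 colorectal cancer lines with 1 library each. MIP/5FU is 1 clone that survived stepwise exposure of MIP101 to 5-fluorouracil (5-FU), a pyrimidine analog used against this cancer, and its IC50 was 10-fold that of its parent. It was held in medium with 5 µM of the drug. MIP101 is the 5-FU sensitive parent, and the cells derive from a liver metastasis. Both cultures went without drug or antibiotics for about 48 hours before RNA was taken. The question was how far the resistant clone and its parent differ in the level of CD44 and in which of its exons were joined. With 1 library per line there is no replicate check and no test between lines, and a clone can differ from its parent for reasons other than resistance. Every interval given covers counting error only, since PCR reads without molecular identifiers are not independent molecules.

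Reads assigned to genes numbered 109693681 in MIP/5FU and 200141071 in MIP101. Junction reads numbered 13022878 in MIP/5FU and 24925624 in MIP101. Colon epithelial genes were read in both lines, with the keratin KRT18 at 2156 RPKM in MIP/5FU and 1819 RPKM in MIP101 (reads scaled for gene length and for the total of gene reads) and EPCAM at 202 and 179 RPKM in that order of lines. Of the 10 colon markers, KRT20 was 6.77-fold higher in MIP/5FU, VIL1 was 2.34-fold lower and LGALS4 2.47-fold lower, so the 2 lines differed in these epithelial genes, and their part in the CD44 ratio was not tested. Leukocytes and fibroblasts also carry CD44, so their markers were read too. The 8 leukocyte genes summed to 2.94 RPKM in MIP/5FU and 6.47 RPKM in MIP101, with the defining gene PTPRC at 10 reads in MIP/5FU and 12 in MIP101. Other members were read more. LCP1 had 396 reads in MIP/5FU and 1642 in MIP101, 2.27-fold lower. CORO1A had 278 in MIP/5FU and 1351 in MIP101, 2.66-fold lower. The 11 fibroblast and mesenchymal genes summed to 4.49 RPKM in MIP/5FU and 3.71 RPKM in MIP101, and COL1A2, DCN and LUM had 0 reads in both. In the same list PDGFRB had 1788 reads in MIP/5FU and 2465 in MIP101, and VIM had 221 in MIP/5FU and 322 in MIP101. The 4 endothelial genes summed to 0.0071 RPKM in MIP/5FU and 0.036 RPKM in MIP101, and the 4 hepatocyte genes found to 0.374 and 0.179 RPKM.

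The splice joins that separate the CD44 forms are shown here because each junction read has to cross one of them. Exons carry the numbers of the deposited features, in which exons 7 to 15 correspond to v2 to v10. Sequences are from GENCODE release 29 transcripts on GRCh38, plus strand. They were matched to the hg18 features by the lengths of 16 successive exons, which are identical in order. In each join the upstream exon is in lower case and the downstream exon in capitals. The first join makes standard CD44, the second enters v8 from exon 6, the third enters v6 from exon 6, the fourth joins v3 to v8, the fifth leaves out v10, and the last leaps from exon 3 into exon 18.
exon 6 to exon 16: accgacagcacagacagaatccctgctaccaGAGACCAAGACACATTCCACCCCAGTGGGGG
exon 6 to exon 13: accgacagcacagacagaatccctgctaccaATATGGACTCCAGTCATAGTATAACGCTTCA
exon 6 to exon 11: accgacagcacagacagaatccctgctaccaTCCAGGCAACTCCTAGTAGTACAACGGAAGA
exon 8 to exon 13: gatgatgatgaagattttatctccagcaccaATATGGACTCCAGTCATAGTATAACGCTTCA
exon 14 to exon 16: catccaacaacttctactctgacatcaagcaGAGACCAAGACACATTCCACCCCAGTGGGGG
exon 3 to exon 18b: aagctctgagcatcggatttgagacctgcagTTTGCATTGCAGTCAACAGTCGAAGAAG
On GRCh38 the upstream ends lie at chr11:35190035-35190065 (exon 6), chr11:35198216-35198246 (exon 8), chr11:35210024-35210054 (exon 14) and chr11:35176710-35176740 (exon 3). The downstream starts lie at chr11:35214852-35214882 (exon 16), chr11:35208105-35208135 (exon 13), chr11:35204512-35204542 (exon 11) and chr11:35221705-35221732 (the last 28 bases of exon 18).

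The 3 variable exons that carried most of the variable-exon reads are given whole, with the 31 bases at each end that a junction feature uses in capitals. On GRCh38 they lie at chr11:35208105-35208206, chr11:35209965-35210054 and chr11:35211246-35211449, all in the coding sequence.
exon 13, v8: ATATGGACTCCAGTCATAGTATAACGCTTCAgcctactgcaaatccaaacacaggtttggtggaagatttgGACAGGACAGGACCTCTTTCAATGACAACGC
exon 14, v9: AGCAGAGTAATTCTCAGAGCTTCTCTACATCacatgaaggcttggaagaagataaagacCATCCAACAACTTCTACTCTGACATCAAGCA
exon 15, v10: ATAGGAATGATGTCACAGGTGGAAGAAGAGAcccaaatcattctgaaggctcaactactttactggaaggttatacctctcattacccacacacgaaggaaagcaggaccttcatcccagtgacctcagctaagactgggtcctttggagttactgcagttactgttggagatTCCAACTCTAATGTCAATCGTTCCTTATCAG
All 9 variable exons have lengths divisible by 3, so any of them can be left out without shifting the reading frame. The leap from exon 3 to exon 18 is different, since it leaves out 620 bases of the standard transcript, which is 2 more than a multiple of 3.

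CD44 was more abundant in the resistant clone. It had 8388 reads in MIP/5FU and 4792 in MIP101, although the MIP101 library was the deeper one. That is 13.3 RPKM in MIP/5FU and 4.16 RPKM in MIP101, a ratio of 3.19-fold with a 95% interval of 3.08 to 3.31. On the authors' normalized coverage per base the gene stood at 114 in MIP/5FU and 36.2 in MIP101, a ratio of 3.14. Genes with a summed count of 100 or more numbered 15382. Of these, 389 (2.53%) reached a 2-fold higher level in MIP/5FU with an interval excluding no change, and 81 of the 389 had a higher ratio than CD44. Its level per length exceeded that of 63.3% of these genes in MIP/5FU and of 38.7% in MIP101. In bulk RNA, more cells carrying the transcript and more transcript per cell cannot be told apart.

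The constant exons were all higher in MIP/5FU, and their sums before and after the variable block had similar ratios. Constant coding regions were taken as those of exons 1, 3 to 6 and 16 to 18, 9 regions with 880 bases. Together they had 2847 read equivalents in MIP/5FU and 1627 in MIP101, where a read equivalent is the deposited coverage divided by the mean bases per read of that library. This was 3.19-fold (3.00 to 3.39), the same value as for the whole gene. The 5 regions before the variable block were 3.22-fold higher (3.00 to 3.45) and the 4 regions after it 3.10-fold higher (2.73 to 3.53). Single constant regions ran from 2.55-fold in exon region 18a to 4.07-fold in exon region 1b, and each of the 9 intervals lay above no change. Region 19a, 3271 bases that are mostly 3′ untranslated, was 3.28-fold higher (3.12 to 3.44), and region 1a, which is 5′ untranslated apart from 1 base, was 3.76-fold higher (2.97 to 4.80). The 2 regions found only in a short Ensembl transcript, 1c and 2a, had 0 coverage in both libraries, which allows up to 3 reads in each.

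**Figure D1:**
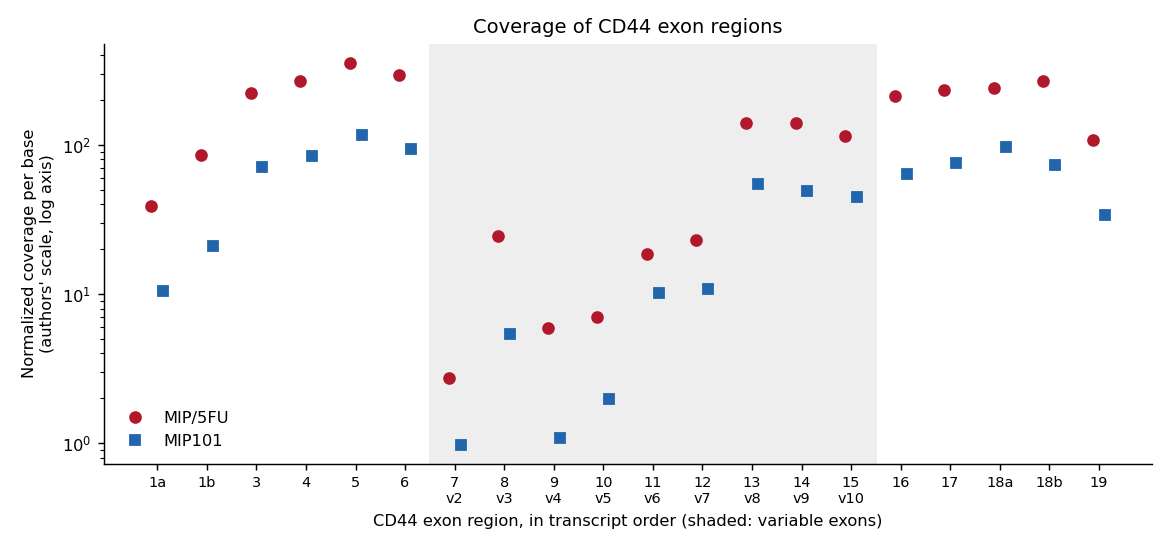
Authors' normalized coverage per base (log axis) of the 20 CD44 exon regions with reads, in transcript order, with MIP/5FU as circles and MIP101 as squares; variable exons are shaded. MIP/5FU lies above MIP101 in every region, and in both lines coverage is lowest at v2 and highest among the variable exons at v8 and v9.

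In both lines the variable block was read at well below the constant level, and most of that came from v8 to v10, which held 648 of 782 variable-exon read equivalents in MIP/5FU and 443 of 533 in MIP101. As a share of the coverage per base of the constant coding regions, the 9 variable exons together stood at 21.1% in MIP/5FU (19.5 to 22.9) and 25.2% in MIP101 (22.8 to 27.8). Exons 13 to 15 (v8 to v10) stood at 50.6% in MIP/5FU (46.4 to 55.1) and 60.5% in MIP101 (54.3 to 67.2). These are the exons of the epithelial form of CD44. Exons 8 to 12 (v3 to v7) reached only 6.47% in MIP/5FU (5.38 to 7.71) and 7.62% in MIP101 (6.07 to 9.46). Exon 7 (v2) reached 1.09% in MIP/5FU (0.329 to 2.65) and 1.22% in MIP101 (0.245 to 3.63).

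The 3 exons of the v8 to v10 group were read at similar depth. Normalized coverage per base of exon 13 (v8, hg18 chr11:35186228-35186329) was 140 in MIP/5FU and 54.8 in MIP101. Exon 14 (v9, hg18 chr11:35188088-35188177) had 141 in MIP/5FU and 49.1 in MIP101. Exon 15 (v10, hg18 chr11:35189369-35189572) had 115 in MIP/5FU and 45.0 in MIP101. Between the 2 lines each of them was higher in MIP/5FU, by 2.59-fold (2.06 to 3.27) for v8, 2.91-fold (2.27 to 3.78) for v9 and 2.60-fold (2.17 to 3.11) for v10.

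The exons further upstream were weakly read and uneven. Exon 8 (v3), which carries the heparan sulfate attachment site of CD44, had coverage of 24.7 in MIP/5FU and 5.42 in MIP101, 4.54-fold higher (2.53 to 8.90). Exon 9 (v4) had 5.91 in MIP/5FU and 1.08 in MIP101, and exon 10 (v5) had 7.06 in MIP/5FU and 1.98 in MIP101, both under 20 read equivalents over the 2 libraries. Exon 11 (v6), the part of CD44 reported to act as a coreceptor for MET, had 18.4 in MIP/5FU and 10.1 in MIP101. This was 1.85-fold higher (1.08 to 3.17), the smallest ratio of any region read. Exon 12 (v7) had 23.2 in MIP/5FU and 10.8 in MIP101, 2.17-fold higher (1.33 to 3.56). The ratio of v3 to v6 read equivalents was 1.31 in MIP/5FU (0.796 to 2.17) and 0.523 in MIP101 (0.265 to 0.993). These 2 exons were paired after their values were seen, and their order in MIP/5FU is within counting error.

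By summed coverage, the ratio of the variable exons was somewhat smaller than that of the constant exons. Over all 9 variable exons the ratio was 2.68-fold (2.40 to 3.00) against 3.19-fold for the constant coding regions. The difference between these log2 ratios was -0.25, with a 95% interval of -0.44 to -0.07 for counting error. For v8 to v10 alone the difference was -0.26 (-0.46 to -0.06), and for v6 and v7 it was -0.66 (-1.18 to -0.13). For v3 to v5 it was 0.50 (-0.22 to 1.25), in the other direction with an interval that spans 0. The grouping of the variable exons and the choice of the block between exons 6 and 16 were made after the values had been seen. The rule written down first took the Ensembl junction skipping the most exons, which proved to be that from exon 3 to exon 18, and its block of exons 4 to 17 is mostly constant exons. With that block the difference was -0.11 (-0.21 to 0.0021), and the block was read at 1.19 times the level outside it in MIP/5FU and 1.28 times in MIP101.

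No single exon region had a ratio 2-fold or more away from that of its gene. The splicing index, the log2 ratio of a region minus that of its gene, ran from -0.33 to 0.35 over the 9 constant coding regions, with an SD of 0.18 between them. Exon 13 at -0.30, exon 14 at -0.13 and exon 15 at -0.30 (95% interval -0.56 to -0.04) lay inside this range. Exon 11 at -0.79 (95% interval -1.56 to -0.01), exon 12 at -0.56 (-1.26 to 0.16) and exon 8 at 0.51 (-0.34 to 1.48) lay outside it, each with under 75 read equivalents over both libraries. The 95% intervals of exons 11 and 15 excluded 0, and 0 of the 9 constant coding regions had such an interval. Of 17 CD44 regions with at least 50 read equivalents, 0 had an absolute index of at least 1 with an interval at an error level of 0.1% excluding 0, where 0.275% of 139703 such regions in all genes did. Among regions of other genes within 2-fold of its depth, 6.24% had an index as far from 0 as exon 11, 7.25% as far as exon 15 and 11.7% as far as the constant region 18a.

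**Figure D2:**
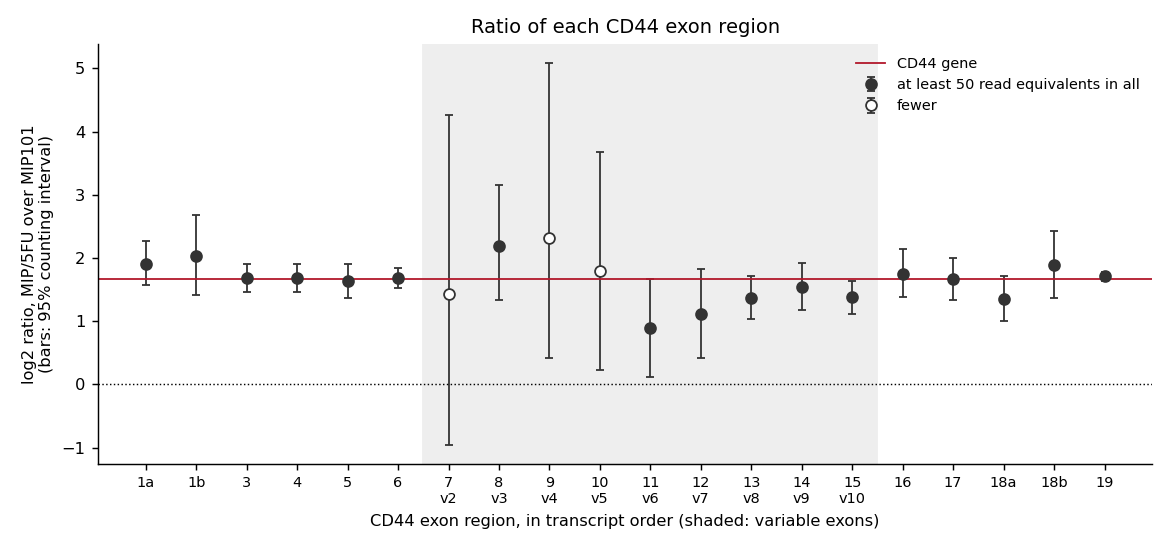
The log2 ratio of MIP/5FU over MIP101 for each CD44 exon region with its 95% counting interval, against the ratio of the whole gene (line); open circles had fewer than 50 read equivalents over both libraries. Constant coding regions lie on both sides of the gene line, at differences from -0.33 to 0.35. The regions v8 to v10 lie below the line but within that range. The regions v6 and v7 lie below the range, and v3 and v4 lie above it with wide intervals.

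Junction reads show directly which exons were joined. CD44 junctions had 902 reads in MIP/5FU and 506 in MIP101, 3.25-fold higher (2.91 to 3.63), and 26 of the 171 possible junctions had a read in either library. Joins between constant exons that skip no variable exon had 648 reads in MIP/5FU and 357 in MIP101, 3.31-fold higher (2.91 to 3.78). Joins with at least 1 end in a variable exon had 209 reads in MIP/5FU and 132 in MIP101, 2.88-fold higher (2.31 to 3.62). Joins that skip 1 or more variable exons had 102 reads in MIP/5FU and 56 in MIP101, 3.31-fold higher (2.38 to 4.69). This group overlaps the one before it, since 57 of its reads in MIP/5FU and 39 in MIP101 also have an end in a variable exon. The 102 reads include 10 that join exon 3 to exon 18, a join with 0 reads in MIP101. For 12 CD44 junctions with at least 20 reads, the splicing index was judged by the rule used for exon regions. That rule asks for an absolute index of at least 1 and an interval at an error level of 0.1% excluding 0. It was passed by 0 of the 12, and by 0.156% of 107276 such junctions in all genes.

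The end of exon 6 is the point from which a transcript enters or skips the variable block. Exon 6 was joined straight to exon 16, the join of standard CD44, by 34 of 76 reads in MIP/5FU and 17 of 47 in MIP101. These are shares of 44.7% in MIP/5FU (Clopper-Pearson 95% interval 33.3 to 56.6) and 36.2% in MIP101 (22.7 to 51.5), and the odds ratio was 1.43 (0.636 to 3.25). The 2 shares overlap over most of their range, so a difference was not detectable at this depth. The second route, into v8, took 23 of 76 reads in MIP/5FU and 17 of 47 in MIP101, with an odds ratio of 0.766 (0.332 to 1.79). Entry at v3 took 10 reads in MIP/5FU and 4 in MIP101, and entry at v2 took 1 read in MIP/5FU and 0 in MIP101.

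Entry at v6 was read in both lines although the deposited annotation gives this join no Ensembl transcript. Exon 6 was joined to exon 11 by 7 of 76 reads in MIP/5FU and 9 of 47 in MIP101, shares of 9.21% (3.78 to 18.1) and 19.1% (9.15 to 33.3) in that order, with an odds ratio of 0.428 (0.126 to 1.42). This was the only CD44 junction with more than 1 read whose raw count was lower in MIP/5FU, the shallower library. Scaled for gene reads, the join was 1.44-fold higher in MIP/5FU, with an interval that spans no change (0.449 to 4.28). Seen from the start of exon 11, most reads came from exon 6, with 7 of 10 in MIP/5FU and 9 of 11 in MIP101, and the others came from exon 10. Reads went on from exon 11 to exon 12 in 7 cases in MIP/5FU and 6 in MIP101, and from exon 12 to exon 13 in 5 and 3. Reads of 42 or 36 bases each cross 1 join, so they do not show that these joins sat in the same molecule.

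**Figure D3:**
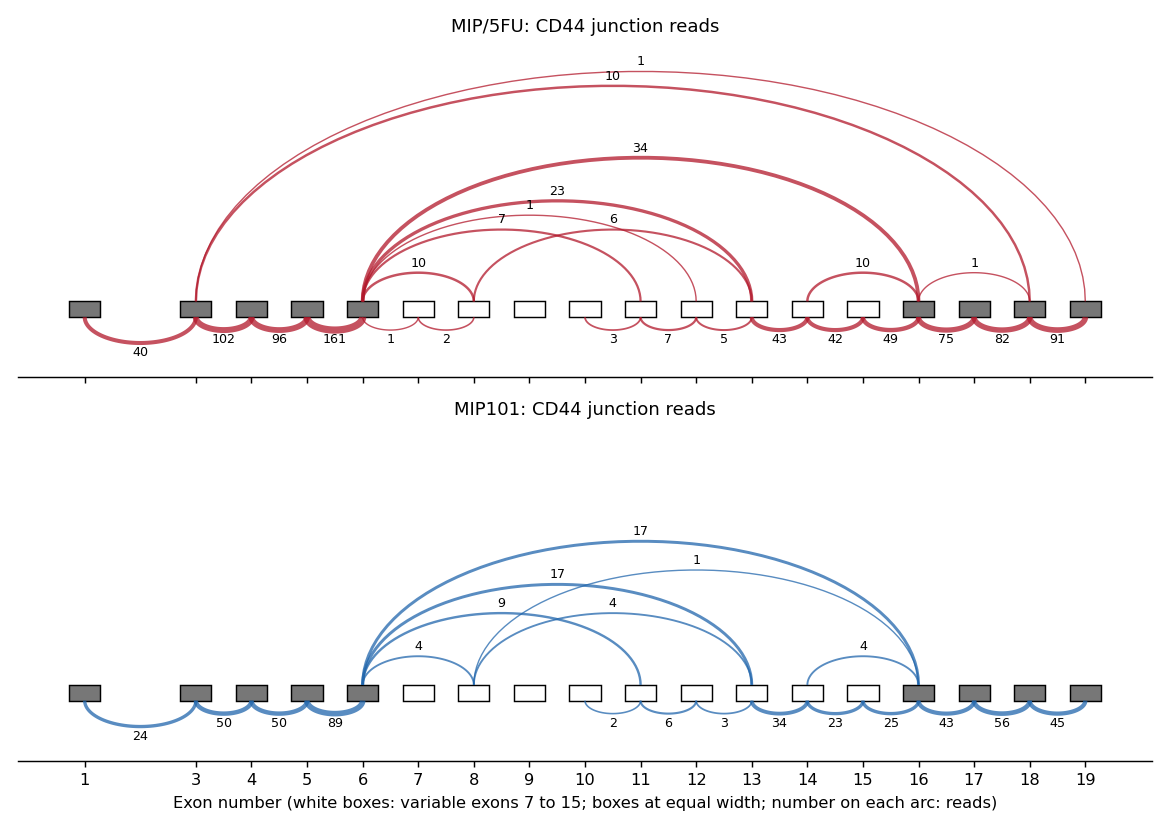
Reads across each CD44 junction in MIP/5FU (upper panel) and MIP101 (lower panel), with exons in order as boxes of equal width, variable exons in white, neighbouring joins below the boxes and skipping joins above; the number on each arc is its read count. The join of exons 6 and 16 had 34 reads in MIP/5FU and 17 in MIP101, and the leap from exon 3 to exon 18 appears in MIP/5FU alone with 10 reads.

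Few reads left exon v3, and none of them led to its annotated neighbour v4. The join of exon 8 to exon 9, present in 2 Ensembl transcripts, had 0 reads in both libraries, as did that of exon 9 to exon 10. Instead exon 8 was joined to exon 13 (v8), a join with no Ensembl transcript, by 6 of 6 reads in MIP/5FU (95% interval of the share from 54.1%) and 4 of 5 in MIP101 (28.4 to 99.5%). At this depth 0 reads allow a share of v3 to v4 joins of up to 50% in MIP/5FU and 60% in MIP101. Exon 9 itself had 8.67 read equivalents in MIP/5FU and 2.84 in MIP101, while the boundary of exon 9 with the intron before it had 6 reads in MIP/5FU and 2 in MIP101. Whether the coverage of exon 9 came from spliced RNA was not tested.

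Exon v10 was skipped in a minority of reads. Exon 14 was joined to exon 16, leaving out v10, by 10 of 52 reads in MIP/5FU and 4 of 27 in MIP101, or 19.2% (9.63 to 32.5) and 14.8% (4.19 to 33.7) in that order. The odds ratio was 1.37 (0.343 to 6.63). No Ensembl transcript of that release holds this join either, and 2 ESTs do. Seen from the start of exon 16, the shares arriving from exon 6 were nearly equal, at 36.6% of 93 reads in MIP/5FU (26.8 to 47.2) and 36.2% of 47 in MIP101 (22.7 to 51.5). Arrivals from v10 were 52.7% in MIP/5FU (42.1 to 63.1) and 53.2% in MIP101 (38.1 to 67.9). The join of standard CD44 and that of v10 to exon 16 were thus both read in both lines.

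**Figure D4:**
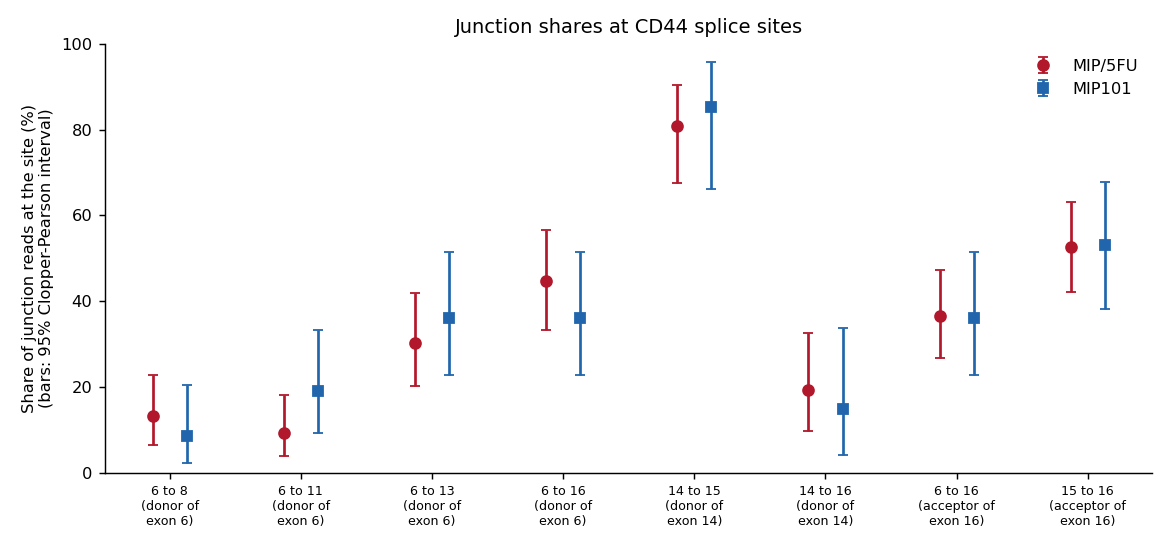
Shares of junction reads at the donor of exon 6, the donor of exon 14 and the acceptor of exon 16, with Clopper-Pearson 95% intervals, MIP/5FU as circles and MIP101 as squares. The intervals of the 2 lines overlap at every join shown, and the shares at the acceptor of exon 16 are nearly equal.

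A single CD44 join was read in the resistant clone and not at all in its parent with more than 2 reads. The leap from exon 3 to exon 18, annotated in transcript ENST00000278386, had 10 reads in MIP/5FU and 0 in MIP101. With 3 reads in place of the 0 in MIP101 it was 6.08-fold higher in MIP/5FU, or 1.90 times the ratio of the gene. These values take the 10 reads as exact. The 95% counting interval of its ratio started lower, at 4.09-fold, and had no upper bound. It made up 8.85% of the 113 reads leaving exon 3 in MIP/5FU (4.33 to 15.7), and 0 of 50 in MIP101, which allows a share of up to 6%. The interval of the MIP101 share runs from 0 to 7.11% and overlaps that of MIP/5FU, while the 95% interval of the odds ratio starts at 1.03 and has no upper bound. Over all genes, 20 of 100968 junctions with at least 10 reads in MIP/5FU (0.0198%) had 0 in MIP101. That set was chosen on MIP/5FU reads alone and includes junctions of greater depth. Its share therefore does not show how unusual this join is. This junction was picked out for its counts and had fewer than the 20 reads required for the splicing index. It leaves out the variable block, 5 constant exons (4 to 6, 16 and 17) and the first part of exon 18.

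Isoform-specific features were read thinly. Of the 6 CD44 transcripts, the feature of standard CD44, ENST00000263398, was the one with at least 50 read equivalents. That feature is the join of exon 6 to exon 16 alone, so it repeats the junction reads given above and is no separate measurement. It had 33.6 in MIP/5FU and 16.7 in MIP101, 3.61-fold higher (1.98 to 7.04). It did not pass an absolute index of at least 1 with an interval at an error level of 0.1% excluding 0. Of 15209 transcripts in all genes, 0.69% passed both conditions. ENST00000352818, the form with v8 to v10, had 23.1 read equivalents in MIP/5FU and 16.5 in MIP101, 2.53-fold higher (1.30 to 5.11). Its feature is likewise the join of exon 6 to exon 13 alone.

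Reads running from CD44 exons into introns were few in both lines. Leaving out a boundary that lies inside exon 1, 12 of 35 boundaries had reads, 36 in MIP/5FU and 17 in MIP101. This came to 0.429 per 100 gene reads in MIP/5FU and 0.355 in MIP101. Boundaries of all genes had 1.78 in MIP/5FU and 1.72 in MIP101, with any boundaries inside exons kept, so the 2 measures are not alike. With the boundary inside exon 1 kept, CD44 had 51 boundary reads in MIP/5FU and 24 in MIP101. The start of exon 18 had 10 reads in MIP/5FU and 9 in MIP101, and the end of exon 14 (v9) had 5 in MIP/5FU and 0 in MIP101. The only CD44 boundary with at least 20 reads, that inside exon 1, had 15 in MIP/5FU and 7 in MIP101 with a splicing index of 0.24. Of 31842 boundaries in all genes, 0.864% had an absolute index of at least 1 with an interval at an error level of 0.1% excluding 0.

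The genes beside CD44 on chromosome 11 had ratios well below that of CD44. The 5 nearest protein-coding genes with at least 100 reads on each side had a median log2 ratio of -0.0026, from -0.37 in ABTB2 to 0.42 in CAT (catalase), and 0 of 10 reached 2-fold, beside 2.53% of all genes tested that were higher and 3.09% that were lower. PDHX, the nearest of them on one side, had 23.5 RPKM in MIP/5FU and 23.7 RPKM in MIP101. SLC1A2, a glutamate transporter gene and the nearest on the other side, had 0.216 RPKM in both. The 4 protein-coding genes closest to CD44 in ratio, of 4887 with at least 500 reads and coverage within 2-fold of that of CD44 in MIP/5FU, were ENO2 at 3.15-fold, LRRC61 at 3.11-fold, MLPH at 3.35-fold and NFIB at 3.38-fold. This likeness rests on 1 value from 2 libraries.

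For the genes whose proteins are reported to control the CD44 variable exons, mRNA levels were within 2-fold between the lines wherever at least 100 reads were counted. This held for 26 of 27 genes, so 0 were counted as higher, beside 2.53% of all genes tested, and 0 as lower, beside 3.09%, and the median log2 ratio was 0.03, equal to the 0.03 over all genes tested. U2AF2, which helps recognise the start of exons, had 87.8 RPKM in MIP/5FU and 112 RPKM in MIP101 with a log2 ratio of -0.35. ESRP1 and ESRP2 are the epithelial splicing factors that favour inclusion of variable exons. ESRP1 had 7.71 RPKM in MIP/5FU and 6.27 RPKM in MIP101, 1.23-fold higher (1.18 to 1.29). ESRP2 had 40.7 RPKM in MIP/5FU and 33.9 RPKM in MIP101, 1.20-fold higher (1.18 to 1.22). RBFOX2, another splicing factor, was 1.21-fold higher (1.19 to 1.24).

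Over the 5 lists of CD44-related genes, 3 of 85 genes tested (3.53%) were at least 2-fold lower in MIP/5FU and 0 were 2-fold higher, where 3.09% of all genes tested were lower. Each of the 3 is an extracellular or membrane protein gene. COL4A1, a basement membrane collagen chain and CD44 ligand, had 2 reads in MIP/5FU and 2527 in MIP101, 554-fold lower (192 to 5721). FN1 (fibronectin), which CD44 can also bind, had 375 reads in MIP/5FU and 1377 in MIP101, 2.01-fold lower (1.79 to 2.26). APH1B, a subunit of the gamma-secretase that cuts CD44 within the membrane, had 10 reads in MIP/5FU and 151 in MIP101, 7.91-fold lower (4.38 to 17.6).

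Among the 85 tested members, no other reached 2-fold. Some members with fewer than 100 reads, which were not tested, lay beyond 2-fold. Examples chosen after their values were seen are STAB1, a scavenger receptor, with 38 reads in MIP/5FU and 19 in MIP101 (3.60-fold, 2.05 to 6.70), and ANK1, an ankyrin, with 12 reads in MIP/5FU and 62 in MIP101. Among hyaluronan genes, 8 of 10 tested had a ratio below 1 and the median log2 ratio was -0.28. HAS2 and HAS3 are hyaluronan synthases. HAS2 had 0.652 RPKM in MIP/5FU and 0.397 RPKM in MIP101, and HAS3 had 1.41 RPKM in MIP/5FU and 2.05 RPKM in MIP101, log2 ratios of 0.72 and -0.54 in that order. STAB2, a clearance receptor for hyaluronan, had a log2 ratio of -0.42, and HYAL2, a hyaluronidase, had -0.41.

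In the list on cutting of CD44 at the cell surface, which holds proteases, gamma-secretase subunits and the TIMP inhibitors, 12 of 13 tested genes had a ratio below 1, with a median log2 ratio of -0.33. The exception was the inhibitor gene TIMP2 at 0.29. ADAM10, a protease that sheds the CD44 ectodomain, had 43.9 RPKM in MIP/5FU and 77.3 RPKM in MIP101, a log2 ratio of -0.82. TIMP3, an inhibitor of such proteases, had 12.3 RPKM in MIP/5FU and 22.2 RPKM in MIP101, a log2 ratio of -0.85. PSEN2, a catalytic subunit of gamma-secretase, had a log2 ratio of -0.75.

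Linkers of CD44 to the cytoskeleton were split, with 7 of 18 above 1 and a median log2 ratio of -0.07. Among these 18, CAV1 (caveolin) had the highest log2 ratio at 0.89, with 8.07 RPKM in MIP/5FU and 4.34 RPKM in MIP101. ANK2 at -0.79 and the kinase gene FYN at -0.70 were the lowest of the 18, and SRC had -0.45. EZR (ezrin), which ties the CD44 tail to actin, had 130 RPKM in MIP/5FU and 167 RPKM in MIP101, and its relative MSN (moesin) had 2 reads in MIP/5FU and 9 in MIP101.

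Ligands and partner receptors had 14 of 18 ratios above 1 and a median log2 ratio of 0.20. SLC7A11, the cystine transporter subunit that CD44 v8 to v10 forms are reported to stabilise at the surface, had 8.41 RPKM in MIP/5FU and 4.43 RPKM in MIP101, a log2 ratio of 0.92 and the highest of the 18 tested. FGF2, a growth factor, had 0.42. MET, a receptor reported to need v6, had 57.2 RPKM in MIP/5FU and 53.2 RPKM in MIP101. The ligand gene SPP1 (osteopontin) had 0 reads in MIP/5FU and 7 in MIP101.

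**Figure D5:**
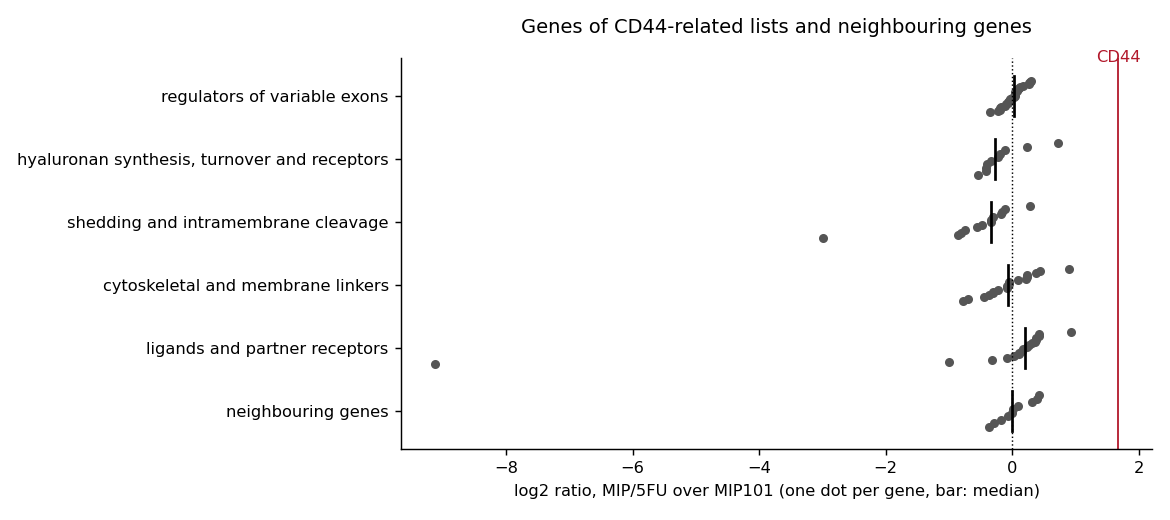
The log2 ratio of MIP/5FU over MIP101 for each tested gene of the 5 CD44-related lists and for the 10 neighbouring genes, with list medians as bars and the CD44 ratio as a line. CD44, at 1.68, lies above every gene plotted, and COL4A1 at -9.11 and APH1B at -2.98 lie far below.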

How the data were processed

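Per the labels, polyadenylated RNA (integrity score at least 9) was made into cDNA with random hexamers, sheared, cut to fragments of 190 to 210 bp, amplified by 10 PCR cycles and read in pairs of 42 or 36 bases. The protocol as described marks no strand. The features are those of Ensembl release 53 on hg18, which the submitters' processing notes name as the build. Which aligner placed the reads was not given in the sources used here.

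As deposited, gene, junction and boundary files hold raw read counts per feature. As deposited, all 5 kinds of file hold coverage, the authors' sum of read bases over each feature, and a coverage signal per base that the authors scaled between libraries. Exon region and transcript files hold no read counts, so each coverage was divided by the library's mean read length on genes (39.8 bases in MIP/5FU and 40.4 in MIP101) to give read equivalents.

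Ratios are MIP/5FU over MIP101, each count plus 0.5 being divided by its library's gene reads. Intervals of ratios are exact conditional binomial at 95%, and those of odds ratios are conditional. The interval of a splicing index treats the gene's ratio as known. The index was used where the gene had a sum of 200 reads and 10 in each library, for features with at least 50 read equivalents or 20 reads. Features at 0 in 1 library are bounded with 3 reads. CD44, its gene lists and all rules were chosen with earlier results of these data known. Named genes were the members of each list that reached 2-fold, up to 4 tested members with the largest absolute ratio, 5 neighbours on each side and the 4 genes nearest in ratio. MET, EZR, MSN and SPP1 were added for their roles. Older gene symbols were matched, and 3 listed genes were not analysed here. The rules were run on counts simulated with planted changes and counting error alone. Such counts hold no variation from PCR or between libraries, so they do not show how the rules behave under it. For exon regions they also put every gene at no change, unlike CD44. Alternatives were other scalings, minima, sizes and definitions of the variable block. Software was Python (3.11.15), numpy (2.4.6), scipy (1.17.1), pandas (2.3.3), matplotlib (3.10.9) and, for TMM factors, edgeR (4.0.16) under R (4.3.3).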

Additional observations from a re-analysis of the deposited data

How the results depend on the processing

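No paired analysis was possible because each line has 1 library. The CD44 ratio stayed within its counting interval under every scaling and definition run, from 1.63 on the log2 scale with TMM factors to 1.71 with the constant regions of the rule written first. The count of CD44 exon regions, junctions, boundaries and transcripts passing the splicing index rule stayed at 0 at an absolute index of 0.5. The rule still asked for an interval at an error level of 0.1% excluding 0. Among regions with at least 50 read equivalents, exons 8, 11 and 12 were beyond 0.5 in size, at 0.51, -0.79 and -0.56. Their intervals at that level spanned 0. For regions, junctions and boundaries the count also stayed at 0 under the other minima run for them. For the block of exons 7 to 15, the difference from constant regions ran from -0.28 to -0.22 under its alternatives. For the block of the rule written first it was -0.11, and it became -0.24 with junction reads (the cause was not tested) and -0.25 with exons 7 to 15 as the block. Medians of regions in place of sums moved the level of that block to 0.767 of the constant level in MIP/5FU and 0.899 in MIP101, and that of exons 7 to 15 to 0.0957 in MIP/5FU and 0.134 in MIP101 (the cause was not tested, and exons 13 to 15 held 648 of 782 read equivalents in MIP/5FU). The share of exon 3 to exon 18 reads was 100% at the shared acceptor in MIP/5FU, because no other join uses that acceptor. Counts over the gene lists were the same with median ratio scaling. Over all genes, 864 reached 2-fold in either direction, 183 reached 4-fold, and 1826 reached 2-fold with no minimum of reads. Depth limits the junction shares, with 76 reads leaving exon 6 in MIP/5FU and 47 in MIP101.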
